A study of Mus musculus with 8 samples.

Results

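Of the 22880 genes in the count tables of mouse soleus, 49 encode the machinery of clathrin-mediated endocytosis and its actin partners. They were chosen by gene symbol, whatever their counts, though with earlier results of these data known. They comprise the clathrin chains, the AP2 adaptor, proteins that organize or load the coat and the kinases that act on it. Membrane-curving BAR domain proteins, the synaptojanins and the proteins that bring actin to the pit complete the list. Soleus, a slow postural muscle of the hind leg, was taken whole from 8 male mice on the C57BL/6 J background at 2 months of age. The 4 controls were Dnm2 +/+, and the 4 mutants were Dnm2 +/K562E, heterozygous for a knock-in point mutation in dynamin 2 that exchanges a lysine for a glutamate. The mutation lies in the endogenous gene and is therefore carried by every cell of the animal, not by muscle fibres alone, and a LoxP site left by the targeting stays in an intron of the mutant allele. Reads of both Dnm2 alleles were added in the counts.

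In clathrin-mediated endocytosis the AP2 adaptor binds membrane lipids and the tails of cargo receptors, clathrin triskelia assemble around it into a cage, and BAR domain proteins bend the membrane until dynamin pinches off the neck of the pit. Branched actin made by the Arp2/3 complex helps where the membrane is under tension, and synaptojanin, auxilin and Hsc70 then strip the coat from the vesicle. In skeletal muscle fibres clathrin also forms long-lived plaques at the costameres, and endocytosis retrieves the transferrin receptor and the glucose transporter GLUT4 from the surface.

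The libraries held 33407430 to 48832814 counts. The TMM factors, which correct for differences in RNA composition, lay at 0.9145 to 0.9594 in controls and at 1.037 to 1.103 in Dnm2 +/K562E mice, without overlap. Values below are normalized CPM, that is counts scaled to the library size multiplied by its TMM factor, in the usual CPM unit. All 49 members were tested among the 14001 genes that passed the filter on low counts. The test was the quasi-likelihood test of edgeR, with Benjamini-Hochberg adjustment over all of these genes. Its p-values set the difference between the genotypes against the spread between these mice, which is estimated with information from all genes tested. Muscle markers were high in every library, with a summed level of 60223 to 67632 normalized CPM over 7 fibre genes in controls and 41181 to 46109 in mutants, and 5 of the 7 were lower in the mutants. In the same libraries, 7 of 7 macrophage markers were higher (summed 72.8 to 135 in controls and 179 to 296 in mutants), 5 of 5 fibroblast markers were higher (1810 to 2740.5 and 3885.5 to 5034), and 4 of 4 endothelial markers were lower (810 to 850 and 576 to 662). Of 3 genes of regenerating muscle 2 were higher (Myh3 and Myog), both smooth muscle markers were lower, 1 of 5 Schwann cell markers was lower and neither adipocyte marker passed. No marker of these lists was at 0 in any library. In whole muscle, fewer cells of a type and less RNA per cell cannot be told apart.

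The promoters shown here belong to the members that carry the results below: the pair of clathrin light chains, of which only the b chain passed the test, the F-BAR gene with the smallest p of those that fell, and a neuronal endophilin read mainly in the mutants. Each run is the 250 bases before a RefSeq start (GRCm38.p6), 5′ to 3′ on the strand of the gene, and capitals mark matches to the motifs searched. The Clta window lies at chr4:44004193-44004442 on the plus strand, that of Cltb at chr13:54611374-54611623 on the minus strand, that of Trip10 at chr17:57249201-57249450 on the plus strand and that of Sh3gl3 at chr7:82174546-82174795 on the plus strand. None of these windows touches an annotated exon of its own gene in GENCODE M21. The Sh3gl3 window still lies inside the gene as annotated there (82173840 to 82307419), after the annotated start of the gene.
Clta: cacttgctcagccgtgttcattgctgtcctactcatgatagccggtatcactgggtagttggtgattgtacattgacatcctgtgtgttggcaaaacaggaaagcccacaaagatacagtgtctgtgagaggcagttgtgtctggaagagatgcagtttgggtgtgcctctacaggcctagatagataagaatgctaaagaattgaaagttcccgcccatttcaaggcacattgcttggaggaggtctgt
Cltb: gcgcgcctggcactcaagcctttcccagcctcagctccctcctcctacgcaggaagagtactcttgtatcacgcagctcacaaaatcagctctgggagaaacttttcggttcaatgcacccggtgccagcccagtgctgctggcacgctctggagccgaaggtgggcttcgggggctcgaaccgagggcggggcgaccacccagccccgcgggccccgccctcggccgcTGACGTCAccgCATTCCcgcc
Trip10: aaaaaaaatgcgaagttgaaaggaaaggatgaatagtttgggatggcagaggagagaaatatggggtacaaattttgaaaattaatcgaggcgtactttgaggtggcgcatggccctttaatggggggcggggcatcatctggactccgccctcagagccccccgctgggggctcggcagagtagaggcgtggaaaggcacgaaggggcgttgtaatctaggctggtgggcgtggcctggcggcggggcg
Sh3gl3: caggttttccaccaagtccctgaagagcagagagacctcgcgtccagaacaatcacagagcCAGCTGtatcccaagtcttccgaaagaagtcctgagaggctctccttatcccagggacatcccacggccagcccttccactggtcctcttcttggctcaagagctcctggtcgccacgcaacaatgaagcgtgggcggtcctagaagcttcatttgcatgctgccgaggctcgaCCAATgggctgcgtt

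The motifs were searched as letters on both strands: the cyclic AMP response element TGACGTCA, the muscle type of E-box CAGCTG, the M-CAT element CATTCC and the CCAAT box, no one of which contains another. In the Cltb window TGACGTCA began 21 bases before the start and CATTCC 10 bases before it. In the Sh3gl3 window CAGCTG began 189 bases and CCAAT 15 bases before the start. Neither the Clta window shown, which is 1 of its windows in RefSeq, nor the Trip10 window held any of these letters. Clta does count among the members with CAGCTG and with CCAAT, through sequence not shown here. Of the 56 windows of the 42 members listed there, 3 held TGACGTCA (Ap2b1, Cltb and Sh3gl2), against 1.55% of all 32851 windows. CAGCTG was in 11 (19.6%, against 13% of all windows), CATTCC in 3 (5.36%, against 12.6%) and CCAAT in 13 (23.2%, against 33.8%). A match is a run of letters, not a shown binding site. Arrb1, Arrb2, Cttn, Epn3, Necap2, Reps1 and Snx9 were not matched.

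In control soleus the members spanned a range from abundant to barely detected. Per kilobase of exon, the highest level was that of Sh3glb1 (endophilin B1, a protein of intracellular membranes), at 62.6 ± 3.9 normalized CPM per kb (SD, n = 4). It was followed by Pacsin3 (a syndapin enriched in muscle) at 49.1 ± 2.8, Epn1 (epsin 1) at 45.5 ± 1.3, Trip10 (CIP4) at 40.4 ± 0.77 and Clta (clathrin light chain a) at 38.2 ± 6.4 normalized CPM per kb. The ranges of the control mice overlapped between Pacsin3 and Epn1 and between Trip10 and Clta, so the order within these pairs was not resolved. The clathrin heavy chain Cltc, the AP2 subunits Ap2m1 and Ap2s1 and Pacsin2 came next, at 21.4 to 24.9 normalized CPM per kb. Amph, Epn3, Pacsin1, Sh3gl2, Sh3gl3 and Fcho1 closed the list, between 0.056 and 0.49 normalized CPM per kb, and most of them are known best from neurons, epithelia or blood cells.

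**Figure D1:**
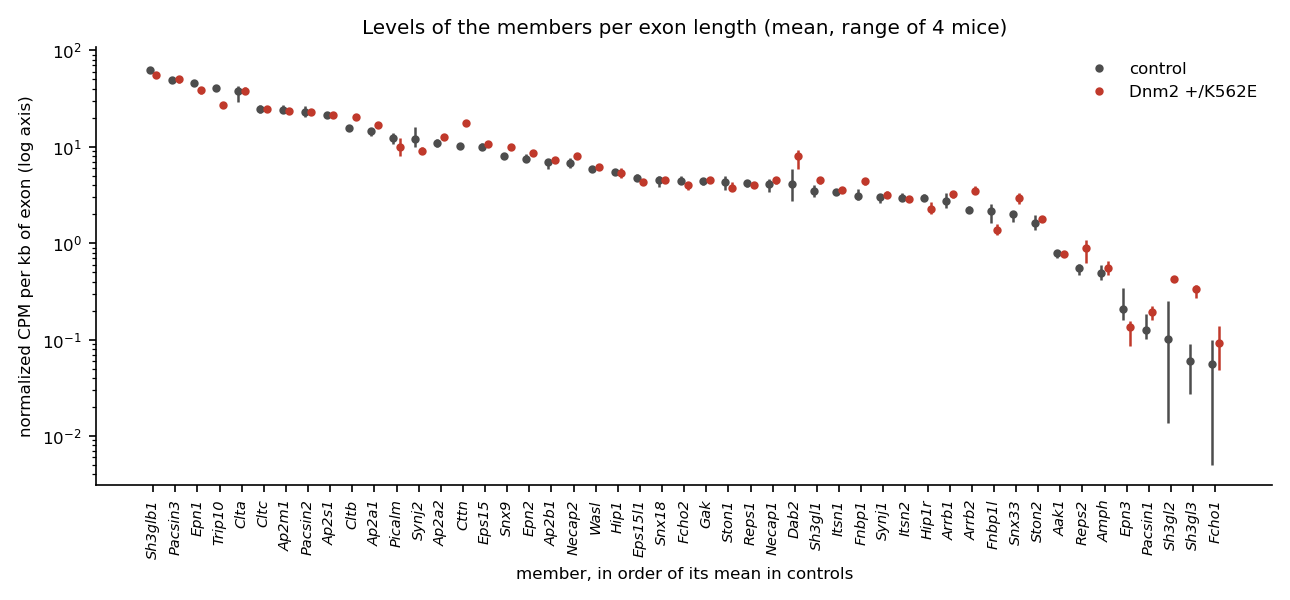
Level of each of the 49 members in normalized CPM per kb of exon (log axis), in the order of the control mean. Points are means and lines the range of 4 mice, with control in grey and Dnm2 +/K562E in red. Sh3glb1 stands at the top at 62.6 and Fcho1 at the bottom at 0.056 in controls, and Sh3gl2 and Sh3gl3 show the widest distance between the genotypes.

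The summed level of the 49 members overlapped between the genotypes, at 2825.5 to 2931.2 normalized CPM in controls and 2828.6 to 2904.3 in Dnm2 +/K562E mice. Their median log2 fold change (Dnm2 +/K562E over control) was 0.07, beside 0.01 for all genes tested. In the edgeR quasi-likelihood test, 15 members were higher and 5 lower in the mutants at an adjusted p under 0.05, while 29 did not pass. That is 40.8% of the members, against 43.8% of all genes tested, so the share of changed members lay near the background. By direction, 30.6% of members were higher (22.2% of all genes) and 10.2% lower (21.7% of all genes). With the study's second threshold, a log2 fold change of at least 0.58 either way, 6 members were higher (Sh3gl3, Sh3gl2, Dab2, Cttn, Arrb2 and Reps2, 12.2% against 12.9% of all genes) and 1 was lower (Fnbp1l, 2.04% against 7.85%). Both directions together make 14.3% of the members and 20.7% of all genes. Sh3gl2 and Sh3gl3 passed the filter through the mutant group, and with 10 counts in every mouse 13 of the 46 members then tested were higher and 5 lower. Past both thresholds, 5 of these 46 were higher and 1 lower. In the main fit Snx33, at 0.579969, lay just under the log2 fold change threshold of 0.58. The values of the genotypes did not overlap for 19 members (38.8%, against 41.2% of all genes).

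The split between higher and lower depends on the scaling. With library size alone in place of TMM factors, 28 members were higher and 2 lower, and 40.1% of all genes tested were higher against 10.7% lower. That scaling moved the median of all genes by 0.21 on the log2 scale, from 0.01 to 0.22, and that of the members from 0.07 to 0.28. The sign of 14 members differs between these scalings, and none of the 14 passed the test with TMM factors. Among the 20 members that passed with TMM, the calls of Epn1, Hip1r and Synj2 were lost with library size alone and no sign was reversed.

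**Figure D2:**
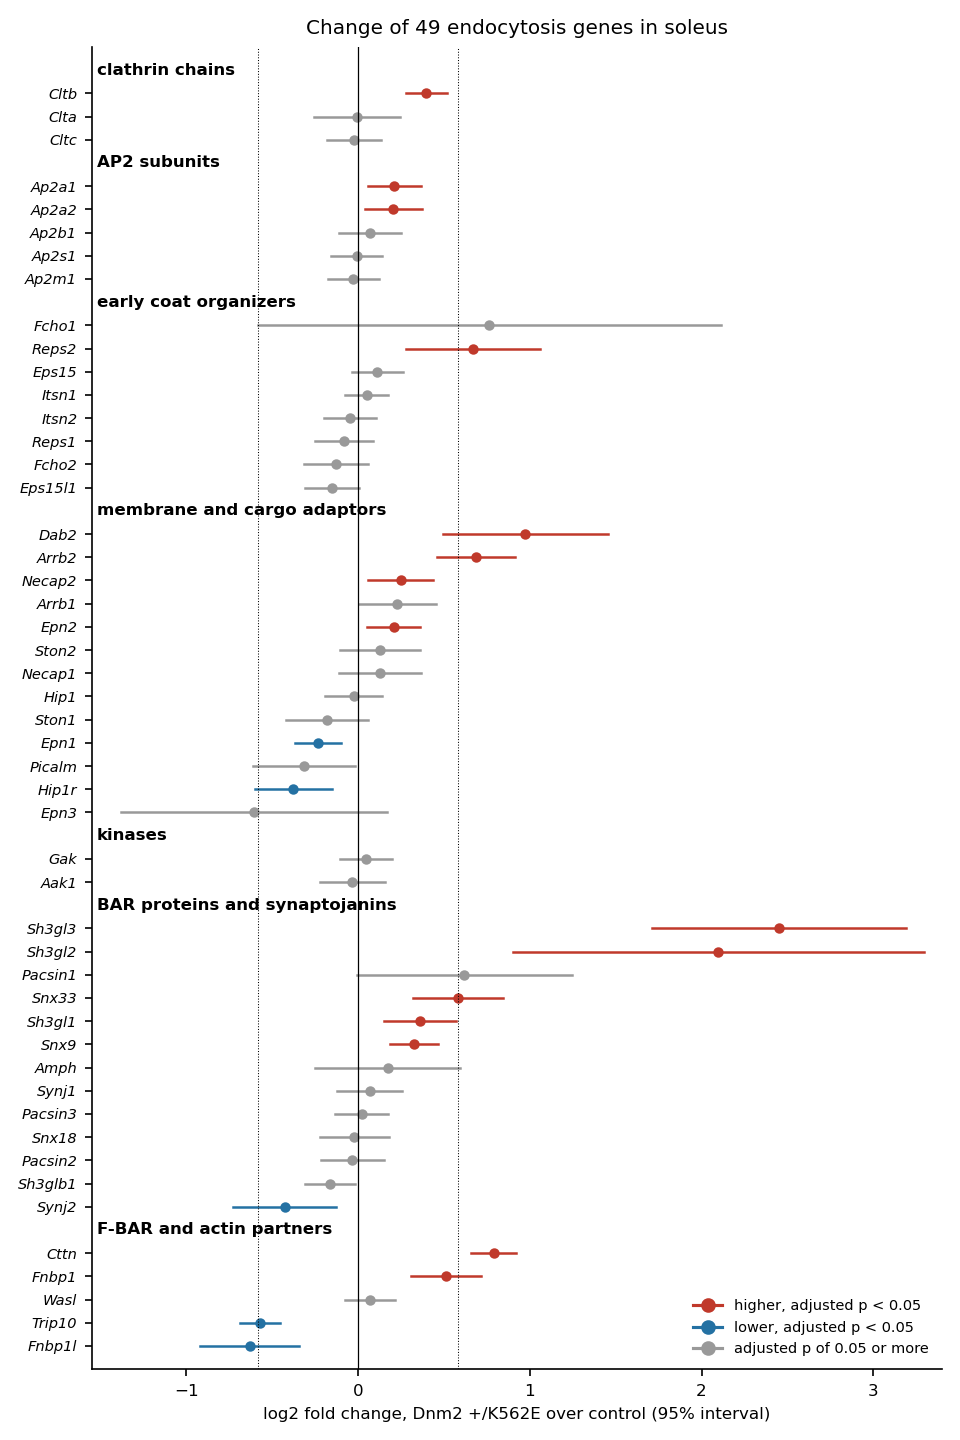
Log2 fold change of the 49 members (Dnm2 +/K562E over control, TMM scaling) with 95% intervals, grouped by role, with dotted lines at 0.58 in either direction. Red members were higher (15), blue members lower (5) and grey members did not pass an adjusted p of 0.05 (29).

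The mutated gene itself was read in every mouse. Dnm2 stood at 68.8, 68.5, 59.2 and 68.7 normalized CPM in control mice 1 to 4 and at 74.2, 76.1, 73.2 and 70.3 in Dnm2 +/K562E mice 1 to 4. The lowest mutant lay just above the highest control, and control 3 was the lowest of all. The log2 fold change was 0.15 (95% interval 0.00 to 0.29, edgeR adjusted p = 0.0909), so Dnm2 did not pass. The point mutation leaves the transcript in place, and its count does not check the genotype. Library size alone gave 0.36 with an adjusted p of 0.0027 in the same edgeR test.

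Of the clathrin chains, only light chain b passed the test. The triskelion is made of heavy chains, encoded by Cltc, with a light chain a or b on each, and the light chains tune its assembly and bind the actin linkers Hip1 and Hip1r. Cltb (clathrin light chain b, ENSMUSG00000047547, chromosome 13, 54592401 to 54611344) was at 73.1, 75.3, 77.4 and 76.7 normalized CPM in control mice 1 to 4 and at 97.1, 96.8, 98.9 and 106 in Dnm2 +/K562E mice 1 to 4. Each mutant was above each control, by more than the spread within either group, and Cltb rose by 0.40 on the log2 scale (SE 0.05, edgeR adjusted p = 0.000193). Its promoter is the one with TGACGTCA shown above. Clta was at 51.9, 71.2, 74.5 and 77.2 in the controls and at 75.1, 67.3, 63.5 and 67.5 in the mutants, and control 1 lay below all others. The heavy chain Cltc was at 188, 222, 209 and 228 in the controls and at 224, 202, 204 and 202 in the mutants. The groups overlapped for Clta and Cltc, with log2 fold changes of -0.01 (95% interval -0.26 to 0.24) and -0.03 (-0.18 to 0.13). Changes within these intervals were not detectable with 4 mice a group. The share of Cltb in the light chain level per kb was 34.25, 28.14, 27.75 and 26.85% in control mice 1 to 4 and 32.35, 34.73, 36.52 and 36.67% in mutants 1 to 4. Control 1, in which Clta was low, lay within the range of the mutants.

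The AP2 adaptor is a complex of alpha, beta, mu and sigma subunits that links cargo, lipids and clathrin. Only its alpha subunits passed the test. Ap2a1 was at 55.9, 64.0, 67.9 and 61.9 normalized CPM in controls 1 to 4 and at 70.6, 75.5, 68.6 and 74.0 in mutants 1 to 4, and each mutant was above each control. Ap2a2 was at 56.4, 67.5, 59.4 and 66.2 in controls and at 77.0, 72.1, 66.4 and 72.1 in mutants, with mutant 3 inside the range of the controls. Both rose by 0.21 on the log2 scale, with edgeR adjusted p of 0.0308 for Ap2a1 and 0.0454 for Ap2a2. Neither call was stable: that of Ap2a1 held in 2 of the 8 fits that left out a mouse, and the edgeR adjusted p of Ap2a2 was 0.0509 with another set of composition factors (RLE). On the opposite strand, the gene Fuz overlaps 16.7% of the exon bases of Ap2a1, and without a known strand setting their reads cannot be told apart there. The beta, mu and sigma subunits did not pass. Ap2b1 had a log2 fold change of 0.07 (95% interval -0.11 to 0.25), Ap2m1 (the cargo-binding mu subunit) one of -0.03 (-0.18 to 0.12) and Ap2s1 one of -0.01 (-0.16 to 0.14). Control 1 stood at 51.1 normalized CPM for Ap2b1, with the other controls at 63.9 to 64.7 and the mutants at 62.0 to 67.4. Ap2m1 ranged over 92.6 to 112 in controls and 95.4 to 99.5 in mutants, and Ap2s1 over 29.7 to 33.6 and 29.3 to 32.9. With library size alone the signs of Clta, Cltc, Ap2m1 and Ap2s1 turn positive, and Ap2b1, Ap2m1 and Ap2s1 then pass. Of the 31-base stretches in Ap2m1 transcripts, 32.4% also occur in other annotated genes, so its count is less certain.

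Among the 8 early organizers of the pit, only Reps2 passed (12.5%, against 43.8% of all genes). REPS2 is an EH domain protein that binds epsin. It was at 3.87, 4.57, 4.86 and 5.09 normalized CPM in control mice 1 to 4 and at 6.65, 8.95, 8.44 and 5.22 in Dnm2 +/K562E mice 1 to 4. Mutant 4 was only just above the highest control, while mutants 2 and 3 were the highest. Reps2 rose by 0.67 on the log2 scale (SE 0.18, edgeR adjusted p = 0.0101). Its paralog Reps1 did not pass (log2 fold change -0.08, 95% interval -0.25 to 0.09), and the share of Reps2 in their level per kb was 10.9 to 12.2% in controls and 13.3 to 22.45% in mutants. The scaffolds Eps15, Eps15l1, Itsn1 and Itsn2, which hold AP2 and dynamin at the rim of the pit, had log2 fold changes of -0.15 to 0.11, and the nucleator Fcho2 one of -0.13. None of them passed. Fcho1 was near the detection limit, with 0.0224 to 0.447 normalized CPM in controls and 0.217 to 0.620 in mutants.

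The 13 adaptors that recruit cargo or tie the coat to membrane and actin went in both directions, with 4 higher, 2 lower and 7 not passing, that is 46.2% called and near the 43.8% of all genes. Dab2, which takes up lipoprotein receptors and integrins, had the largest change of them. It was at 33.9, 24.3, 19.9 and 42.8 normalized CPM in control mice 1 to 4 and at 62.2, 67.5, 63.9 and 43.4 in Dnm2 +/K562E mice 1 to 4. Mutant 4, the lowest of its group, lay just above control 4, the highest of the controls. Dab2 rose by 0.97 on the log2 scale (SE 0.22, edgeR adjusted p = 0.00421). Arrb2 (beta-arrestin 2, which carries activated G protein coupled receptors to clathrin) was at 6.14, 5.91, 5.82 and 6.98 in controls and at 9.86, 11.1, 9.52 and 9.49 in mutants. The groups lay apart, and Arrb2 rose by 0.69 (SE 0.10, edgeR adjusted p = 0.000352). Macrophages and fibroblasts also express Dab2 and Arrb2. Over the macrophage markers, control 4 was the highest control for 7 of 7 and mutant 4 the lowest mutant for 4 of 7. The part of these cells in the result was not tested.

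Beta-arrestin 1 (Arrb1) did not pass, with 0.00 to 0.46 as the 95% interval of its log2 fold change, and the share of Arrb2 in the level per kb of both beta-arrestins was 42.55 to 48.16% in controls and 50.89 to 53.51% in mutants. Of the epsins, which bind ubiquitylated cargo and bend the membrane, Epn1 and Epn2 were called in opposite directions, though the call of Epn2 held in only 2 of the 8 fits that left out a mouse. Epn1 was at 125, 130.1, 132 and 125 normalized CPM in controls 1 to 4 and at 99.0, 111, 110.0 and 115 in mutants 1 to 4. The groups did not overlap, and Epn1 fell by 0.23 on the log2 scale (SE 0.06, edgeR adjusted p = 0.00939). Epn2 rose by 0.21 (edgeR adjusted p = 0.0343), with overlapping groups, since control 1 stood at 44.4 normalized CPM and the other controls at 37.2 to 38.3. Its share of the epsin level per kb was 13.14 to 15.98% in controls and 17.55 to 19.02% in mutants. Epn3, an epithelial epsin, had 0.351 to 1.40 normalized CPM over all mice and did not pass.

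Hip1r, which holds cortical actin and clathrin light chains together, was at 20.4, 20.5, 24.1 and 21.8 normalized CPM in controls 1 to 4 and at 14.7, 16.4, 15.9 and 19.9 in mutants 1 to 4. Each mutant was below each control, mutant 4 only just, and Hip1r fell by 0.38 on the log2 scale (SE 0.10, edgeR adjusted p = 0.0120). The gene Vps37b overlaps 12.5% of its exon bases on the opposite strand, with the same limit. Its relative Hip1 did not pass (log2 fold change -0.02, 95% interval -0.19 to 0.14). Necap2, a small AP2 binding protein, rose by 0.25 (edgeR adjusted p = 0.0350) with overlapping groups, and its call also held in only 2 of these 8 fits. Picalm (CALM, which brings SNARE proteins into the vesicle and sets its size) was at 166, 194, 220.4 and 200.4 in controls and at 171, 127, 134 and 196 in mutants. Mutants 2 and 3 were low and mutants 1 and 4 within the control range, and the log2 fold change of -0.31 did not pass (edgeR adjusted p = 0.0811). Necap1 and the stonins Ston1 and Ston2, adaptors for synaptotagmin, did not pass, with log2 fold changes of -0.18 to 0.13. Nor did Aak1 and Gak, the kinases that phosphorylate the mu subunit and help uncoating, at -0.03 and 0.05, with 95% intervals of -0.22 to 0.16 and -0.11 to 0.20.

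Of the 13 BAR domain proteins and synaptojanins, 5 were called higher and 1 lower (46.2%, near the 43.8% of all genes). The 5 include Sh3gl2 and Sh3gl3, which passed the filter through the mutant group, so this share is a description only. Endophilins A curve the neck of the pit and recruit dynamin and synaptojanin, and the forms A1 (Sh3gl2) and A3 (Sh3gl3) are known best from neurons. Sh3gl3 (ENSMUSG00000030638, chromosome 7, 82173840 to 82307419) had 9, 13, 12 and 4 counts in control mice 1 to 4 and 43, 62, 65 and 59 in Dnm2 +/K562E mice 1 to 4. In normalized CPM these were 0.268, 0.386, 0.269 and 0.118 and 1.17, 1.44, 1.55 and 1.59. The groups did not overlap, and the fitted log2 fold change was 2.45 (SE 0.33). Sh3gl2 (ENSMUSG00000028488, chromosome 4, 85205126 to 85639195) had 55, 3, 14 and 20 counts in controls and 108, 113, 119 and 101 in mutants, that is 1.64, 0.0891, 0.314 and 0.589 and 2.93, 2.63, 2.84 and 2.73 normalized CPM. The controls were uneven, with mouse 1 well above the others and mouse 2 at 3 counts. Its fitted log2 fold change was 2.10 (SE 0.54), and 3.06 without control 1. All 4 mutants met the limit of the filter on low counts, but only 1 control did for Sh3gl3 and 3 for Sh3gl2, so both genes were tested because of the mutant group. Their values are given as a description, with no p, and neither was tested where 10 counts were asked of every mouse. The ubiquitous endophilin A2 (Sh3gl1) stood at 16.8, 15.03, 18.0 and 19.9 in controls and at 22.4, 24.2, 22.6 and 20.4 in mutants without overlap, and rose by 0.36 (edgeR adjusted p = 0.00994). Endophilin B1 (Sh3glb1), the highest member per kb, was at 503, 476, 454 and 435 in controls and at 388, 435, 434 and 412 in mutants. Control 4 was only just above mutants 2 and 3, so the groups barely lay apart, and the log2 fold change of -0.16 did not pass (edgeR adjusted p = 0.0659).

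**Figure D3:**
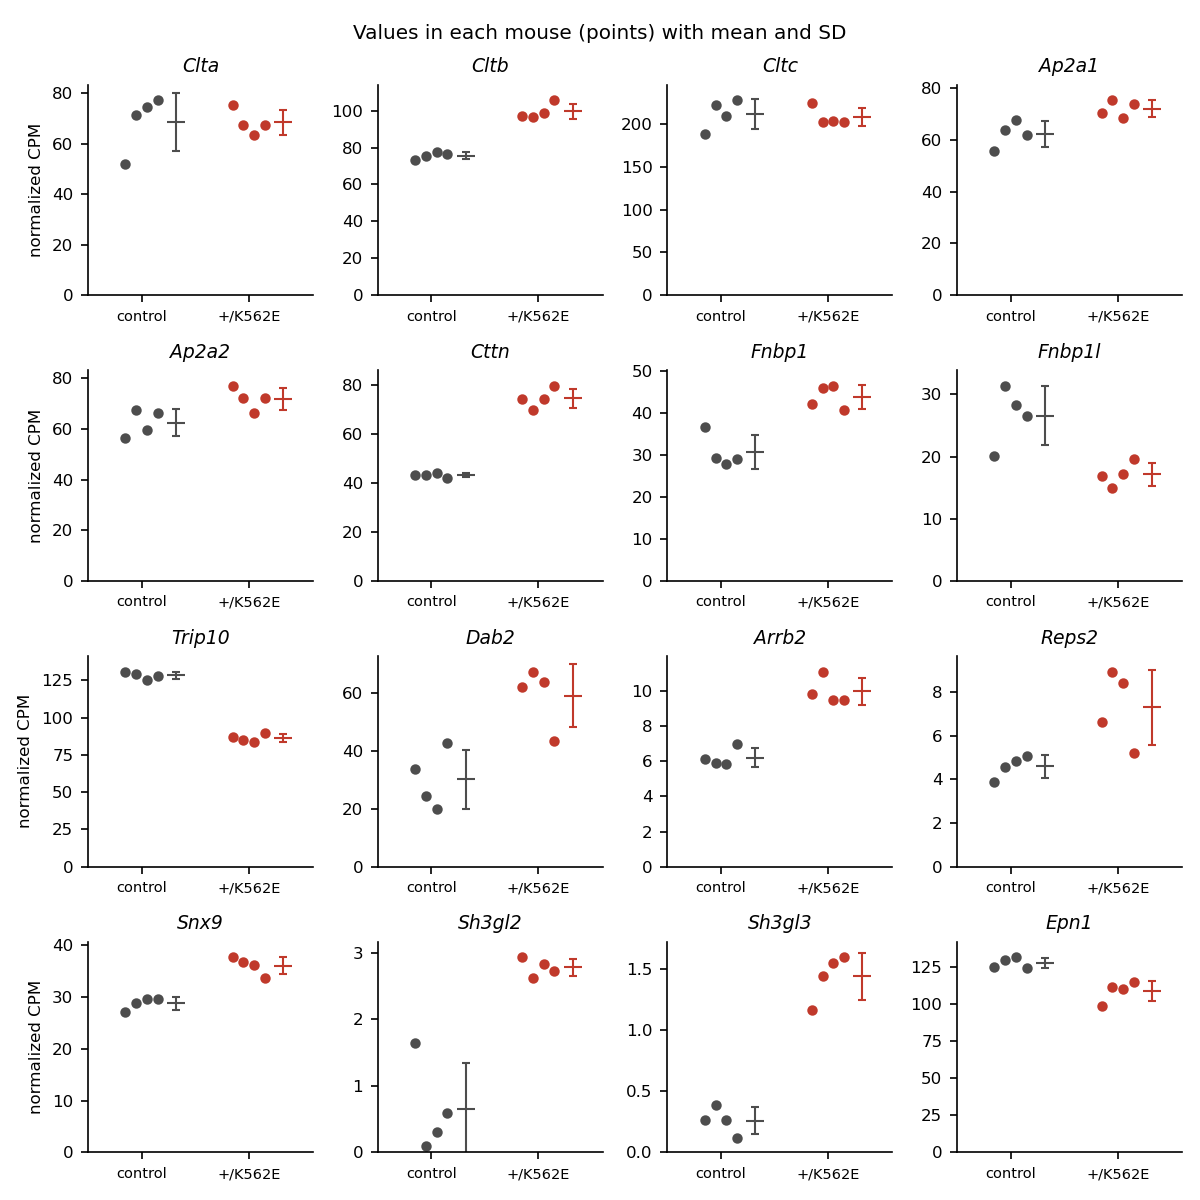
Normalized CPM of 16 members in each of the 8 mice (points), with the mean and SD of 4 mice beside them, control in grey and Dnm2 +/K562E in red; each axis starts at 0. Cltb, Ap2a1, Cttn, Fnbp1, Dab2, Arrb2, Reps2, Snx9 and both endophilins lie higher in every mutant than in any control, Trip10, Fnbp1l and Epn1 lower, and Clta, Cltc and Ap2a2 overlap.

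SNX9 and its paralogs couple membrane curvature to N-WASP and dynamin. Snx9 was at 27.0, 28.8, 29.6 and 29.6 normalized CPM in control mice 1 to 4 and at 37.6, 36.6, 36.1 and 33.6 in Dnm2 +/K562E mice 1 to 4. The groups did not overlap, and Snx9 rose by 0.32 on the log2 scale (SE 0.06, edgeR adjusted p = 0.00188). Snx33 ranged over 7.59 to 9.83 in controls and 11.7 to 15.2 in mutants, and rose by 0.58 (edgeR adjusted p = 0.00249). Snx18 did not pass, with a 95% interval of -0.22 to 0.18, and its share of the family level per kb was 28.7 to 33.5% in controls and 24.0 to 28.4% in mutants. Of the synaptojanins, phosphoinositide phosphatases that release the coat, Synj2 fell by 0.43 (edgeR adjusted p = 0.0257). Synj2 lay between 82.5 and 134 in controls and between 69.5 and 82.1 in mutants, so the margin between the groups was small. Control 1 was the highest, without it the log2 fold change was -0.27, and the call held in 6 of the 8 fits that left out a mouse. Synj1 did not pass (log2 fold change 0.07, 95% interval -0.12 to 0.26). Amphiphysin (Amph) and the syndapins Pacsin1, Pacsin2 and Pacsin3, which bind dynamin through their SH3 domains, did not pass either. Pacsin2, found in most tissues, and Pacsin3 had log2 fold changes of -0.03 (95% interval -0.21 to 0.15) and 0.02 (-0.13 to 0.18).

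Of the 5 F-BAR proteins and partners of actin, 2 were higher and 2 lower, a list too short to set against the 43.8% of all genes. Cortactin (Cttn, ENSMUSG00000031078, chromosome 7, 144435733 to 144471009), which binds dynamin and stabilizes branched actin, had the smallest p of the members. It was at 43.3, 43.0, 43.9 and 42.0 normalized CPM in control mice 1 to 4 and at 74.2, 69.9, 74.1 and 79.5 in Dnm2 +/K562E mice 1 to 4. The coefficient of variation was 1.81% in controls, and every mutant stood far above them. Cttn rose by 0.79 on the log2 scale (SE 0.06, 1.73-fold, edgeR adjusted p = 3.13e-06). Of its 31-base stretches, 7.37% also occur in other annotated genes. N-WASP (Wasl), which switches on the Arp2/3 complex, did not pass (log2 fold change 0.07, 95% interval -0.08 to 0.21).

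The TOCA proteins share an F-BAR domain and activate N-WASP. Of the 3 paralogs, Trip10 and Fnbp1l fell and Fnbp1 rose. Trip10 (CIP4, ENSMUSG00000019487, chromosome 17, 57249455 to 57263665), known in muscle and fat for its part in GLUT4 traffic, was at 131, 129, 125 and 128 normalized CPM in controls 1 to 4 and at 87.2, 85.2, 83.4 and 89.9 in mutants 1 to 4. Both groups were tight, without overlap, and Trip10 fell by 0.57 on the log2 scale (SE 0.05, edgeR adjusted p = 1.14e-05). Fnbp1l (TOCA-1, ENSMUSG00000039735, chromosome 3, 122538719 to 122619715) was at 20.1, 31.4, 28.2 and 26.5 in controls and at 16.8, 15.01, 17.2 and 19.6 in mutants. Control 1 was only just above mutant 4, and Fnbp1l fell by 0.63 (SE 0.13, edgeR adjusted p = 0.00257). Fnbp1 (FBP17) was at 36.7, 29.3, 27.9 and 29.1 in controls and at 42.1, 45.9, 46.5 and 40.7 in mutants. Control 1 was the highest control and still below each mutant, and Fnbp1 rose by 0.51 (SE 0.09, edgeR adjusted p = 0.00119). Trip10 remained the main form, with 88.2 to 88.9% of the family level per kb in controls and 81.3 to 83.4% in mutants, while Fnbp1 held 6.255 to 7.882% and 11.97 to 14.37%. With library size alone Trip10 and Fnbp1l were still lower and Fnbp1 and Cttn still higher, all past the test. Of the 7 fibre markers, 5 were also lower in the mutants, with a median log2 fold change of -0.52 over the 7. The part of muscle fibre content in the falls of Trip10 and Fnbp1l was not tested.

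**Figure D4:**
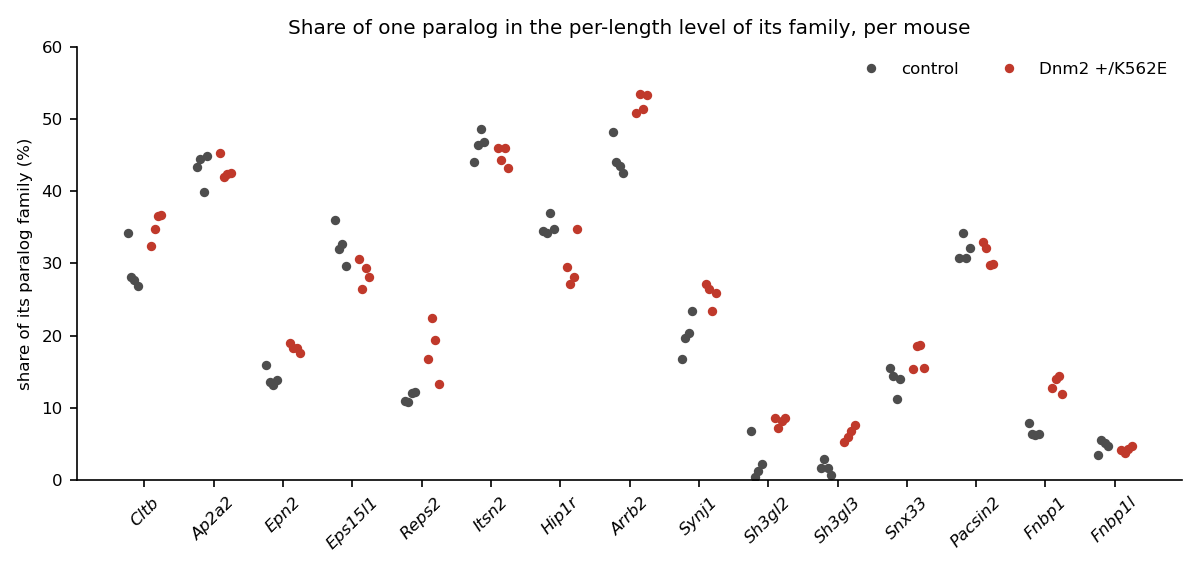
Share of a paralog in the summed level per kb of its family, in percent, in each of the 8 mice (control grey, Dnm2 +/K562E red). Shares within a library do not depend on the scaling factors. Those of Epn2, Reps2, Arrb2, Sh3gl3 and Fnbp1 are higher in every mutant than in any control, and those of the AP2 alpha subunit Ap2a2 and of Pacsin2 overlap.

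Over the 16 families with more than 1 paralog among the members, 7 had a share that did not overlap between the genotypes: the epsins, the endophilins A, the synaptojanins, the beta-arrestins, the TOCA proteins, the REPS proteins and the SNX9 group. The shares of the clathrin light chains, the AP2 alpha subunits, the intersectins, the EPS15 pair, the HIP1 pair, the syndapins, the NECAPs, the stonins and the FCHO proteins overlapped. For single genes, 41.2% of all those tested did not overlap, so such a count of families is no mark of the members. Larger families also have more shares that can lie apart. The shares of the endophilins A rest on Sh3gl2 and Sh3gl3, which passed the filter through the mutant group. The median coefficient of variation of the members was 9.47% in controls and 6.46% in mutants. Among the 42 members with at least 5 normalized CPM in controls, the widest spread was that of Dab2 in controls (33.8%).

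Another 70 genes set the members beside the rest of the pathway. Their lists were drawn up by function, but with earlier results of these data known, so the shares called in them are descriptions only. Of the 68 that were tested, 30 were higher and 8 lower (55.9%, against 43.8% of all genes). Among the 3 classical dynamins, Dnm1, the neuronal form, was higher and Dnm3 did not pass. Dnm1 was at 20.2, 15.6, 12.9 and 19.0 normalized CPM in controls 1 to 4 and at 38.2, 40.9, 44.2 and 38.5 in mutants 1 to 4, and rose by 1.26 on the log2 scale (edgeR adjusted p = 2.33e-05). The groups lay apart, with control 3 the lowest mouse.

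Of 20 other clathrin factors, 7 were higher and 2 lower (9 of 20 called, near the 43.8% of all genes), with a median log2 fold change of 0.19. Snap91 (AP180, the neuronal relative of Picalm that fixes vesicle size) had 1, 0, 3 and 1 counts in control mice and 61, 71, 42 and 52 in Dnm2 +/K562E mice, so it was barely detected in controls and read in each mutant. Like Sh3gl2 and Sh3gl3 it passed the filter through the mutant group. Numbl, a cargo adaptor of the Numb family, rose by 1.35 (edgeR adjusted p = 0.000371), and Bin2, an amphiphysin relative of white blood cells, by 1.10 (edgeR adjusted p = 0.0431) with overlapping groups. Pip5k1b, a kinase that makes the PIP2 which AP2 binds, rose by 0.63 (edgeR adjusted p = 0.0253). The 2 lower genes of this list were the paralogs Numb (log2 fold change -0.22, edgeR adjusted p = 0.0345) and Pip5k1a (-0.35, edgeR adjusted p = 0.00764). In controls Numb had a mean of 26.8 normalized CPM against 9.52 for Numbl, and Pip5k1a 40.1 against 1.33 for Pip5k1b. The adaptors of the Golgi and endosomes (AP1, AP3 and the GGAs) gave 5 higher and 3 lower of 15 tested (53.3%, against 43.8% of all genes), with Gga2 up by 0.86 (edgeR adjusted p = 7.03e-06) and the AP1 sigma subunit Ap1s1 by 0.69 (edgeR adjusted p = 0.000321).

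Of the 19 genes of the Arp2/3 complex and its activators, 11 were higher and 0 lower at an adjusted p under 0.05 in the edgeR quasi-likelihood test (57.9% called, against 43.8% of all genes, of which 22.2% were higher and 21.7% lower), with a median log2 fold change of 0.26. Arpc5l was the 1 gene lower at an unadjusted p under 0.05, and the exact test of edgeR and DESeq2 also called 0 lower. The actin regulators Wipf1, which holds WASP and N-WASP, and Wasf1 (WAVE1) rose by 0.75 (edgeR adjusted p = 2.28e-05) and 1.01 (edgeR adjusted p = 0.0208). The summed level of the list was 699 to 738 normalized CPM in controls and 847 to 876 in mutants. The macrophage and fibroblast markers and 2 of 3 genes of regenerating muscle given above were also higher in the mutants. The part of these cells in the level of this list was not tested.

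Among 11 receptors and transporters that clathrin-coated pits take up, 6 were higher and 3 lower (81.8%, against 43.8% of all genes). The glucose transporter GLUT4 (Slc2a4) was at 594, 598, 611 and 577 normalized CPM in controls 1 to 4 and at 290.4, 283, 296 and 299 in mutants 1 to 4. All mutants lay far below all controls, and Slc2a4 fell by 1.03 on the log2 scale (SE 0.05, edgeR adjusted p = 5.41e-07). The 7 fibre markers given above had log2 fold changes of -1.02 (Ckm) to -0.14 (Mb), with 5 called lower. The part of muscle fibre content in the value of Slc2a4 was not tested. The transferrin receptor (Tfrc) was at 478, 299.9, 280.3 and 243 in controls and at 521, 534, 555 and 561.9 in mutants, with control 1 well above the other controls. Tfrc rose by 0.74 (edgeR adjusted p = 0.00518). The receptor Lrp1 rose by 0.91 and the cation-independent mannose 6-phosphate receptor Igf2r by 0.70 (edgeR adjusted p = 0.000182 and 1.54e-05). Lrp1 is a receptor of fibroblasts and macrophages too, whose markers were higher in these mutants, and their part in its value was not tested.

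**Figure D5:**
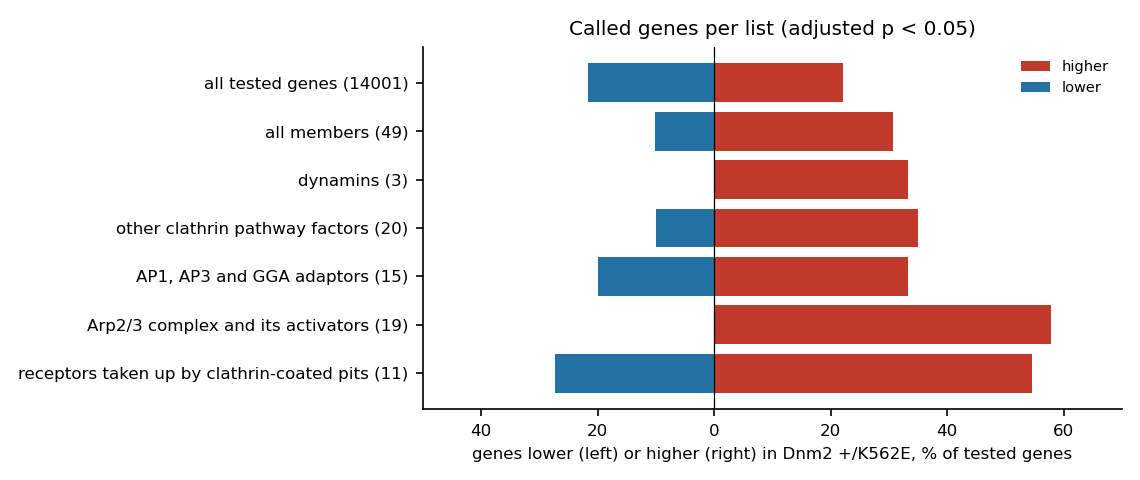
Share of the tested genes of each list that passed an adjusted p of 0.05 (edgeR), lower to the left in blue and higher to the right in red, in percent, with the number tested in brackets. The 49 members (30.6% higher, 10.2% lower) stand beside all 14001 genes (22.2% and 21.7%), and no gene of the Arp2/3 list passed as lower.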

How the data were processed

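RNA of 8 soleus muscles was sequenced, and the authors deposited raw counts per gene and mouse, with no normalization. Per the labels and the methods, reads were trimmed with Trimmomatic 0.33, aligned with STAR 2.5.1b to GRCm38 and counted with featureCounts. The settings dropped alignments with a mapping quality under 10 and took only the primary one of a read with several alignments. Whether any such read passed the quality limit is not stated. A read over several genes counted for each, so overlapping genes share reads. The labels name a stranded total RNA kit and the methods a poly A kit; the strand setting is not given in the sources used here.

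Groups follow the labelled genotype. No column of per-sample values was left unused. Of 22880 gene IDs, 22647 were matched to GENCODE M21 (GRCm38). The filterByExpr function of edgeR 4.0.16 in R 4.3.3 kept 14001 genes, with a minimum count of 10 and a minimum total of 15. TMM factors and the quasi-likelihood fit used only the 2 genotypes, with no covariate. Adjusted p-values are Benjamini-Hochberg values over all tested genes, and standard errors and 95% intervals follow from the F statistic. Depth, 33407430 to 48832814 counts, sets the precision of low genes. The smallest chi-square per degree of freedom between mice of a genotype was 13.0, so no library was counted as a repeat of another. The fit was also run on simulated counts in which 196 of 13888 genes were changed by 1 on the log2 scale, some up and some down. It recovered 83.7% of them, with 8 false calls among 172. So few changed genes leave out the composition difference between the real groups, so the simulation does not test the scaling.

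The members and all lists were chosen with earlier results of these data known. Described in full were the clathrin chains, the AP2 subunits, members past both thresholds and the 3 with the smallest p in each direction among the other called members, which makes 20 members. From other lists, at most 4 genes of smallest p past both thresholds are named, and Numb and Pip5k1a as the lower genes of their list. Sh3glb1, Picalm, Snx33, Synj2, Sh3gl1 and Wasl were given with values as examples of their role groups. Promoters are RefSeq windows (GRCm38.p6), and 31-base stretches were compared between GENCODE M21 transcripts. Alternatives were RLE factors, library size alone, the exact test of edgeR, DESeq2 1.42.0, other filters, replicate blocks and leaving out each mouse.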

Additional observations from a re-analysis of the deposited data

Results flagged for a closer look

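In 100 groups of 4 mice (the 49 members and Dnm2 in each genotype), the highest or lowest mouse was looked at for a gap to its nearest neighbour above Dixon's critical value at 95%. By chance alone about 1 group in 20 would show such a gap, and 10 did. Among controls these were mouse 1 for Ap2b1 (51.09 normalized CPM, lowest), Epn2 (44.36, highest) and Fnbp1 (36.73, highest), mouse 2 for Epn3 (1.396, highest), mouse 3 for Snx33 (7.592, lowest) and Dnm2 (59.21, lowest), and mouse 4 for Pacsin1 (1.207, highest). Among Dnm2 +/K562E mice they were mouse 1 for Cltc (224.5, highest) and mouse 4 for Epn3 (0.3513, lowest) and Ston1 (19.32, highest).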

How the results depend on the processing

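With library size alone, 28 members were higher and 2 lower at an adjusted p under 0.05, 10 higher and 0 lower past both thresholds, and the median log2 fold change of the members was 0.28. Dnm2 then passed at 0.36, and Ap2m1 (0.19) and Ap2s1 (0.20) turned from negative to positive. Leaving out single mice, 11 to 15 members were higher and 4 to 6 lower. Past both thresholds 5 to 8 were higher and 0 to 2 lower: 0 without control 2 or Dnm2 +/K562E mouse 2, and 2 without control 3, control 4 or Dnm2 +/K562E mouse 4. The median ran from 0.0362 (without control 2) to 0.0775, and the log2 fold change of Dnm2 from 0.0941 (without control 3) to 0.168. Of the 20 calls, 15 held whichever mouse was left out, and those of Ap2a1, Ap2a2, Epn2, Necap2 and Synj2 did not. In every fit that tested the gene, 13 held (Cltb, Reps2, Dab2, Arrb2, Sh3gl1, Sh3gl2, Sh3gl3, Snx9, Snx33, Fnbp1, Fnbp1l, Trip10 and Cttn). Both counts include Sh3gl2 and Sh3gl3, which were tested because of the mutant group. The fit with 10 counts in every mouse left them out, so the counts lend no support to their calls. DESeq2 gave 15 higher and 6 lower, and the exact test, RLE factors and no filter 14 and 5 each. With at least 10 counts in every mouse, 46 members were tested, without Sh3gl2, Sh3gl3 and Fcho1, and 13 were higher and 5 lower. Why these calls moved was not tested.

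The mice are numbered 1 to 4 in each group, in another order in the descriptions of the mutants. Deviations of same-numbered mice correlated at -0.21 to 0.0095 by title and -0.17 to 0.18 by description. These values gave no sign that the numbers pair the mice, but with so few mice they cannot exclude it. A replicate block by title gave 11 members higher and 5 lower (6 and 1 past both thresholds, median 0.07, Dnm2 0.15), and the calls of Ap2a1, Ap2a2, Epn2 and Necap2 were lost. A block by description gave 12 and 6. Depth limits most the members of lowest level, Fcho1, Sh3gl3, Sh3gl2, Epn3 and Pacsin1.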
